A study of Mus musculus with 18 samples.

Results

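The 7 complex I genes that lie on mitochondrial DNA were examined in mouse hearts after cold storage and reperfusion. They are mt-Nd1, mt-Nd2, mt-Nd3, mt-Nd4l, mt-Nd4, mt-Nd5 and mt-Nd6, and they were 7 of the 34989 genes in the files. They were selected by name and on their measured shares, as all genes of the mitochondrial chromosome that the annotation assigns to complex I. The values of interest were their estimated counts in each of 18 libraries, as a share of all counts and relative to each other. Because those shares and proportions were used to choose the set, they are given as descriptions with no test. The tests across all genes further on use the same counts. They are not independent of that choice and lend it no support.

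Complex I is the entry point of electrons from NADH into the respiratory chain, and it pumps protons across the inner mitochondrial membrane. All 7 mitochondrially encoded subunits sit in its membrane arm, while the NADH-binding peripheral arm is built from nuclear-encoded subunits. Both strands of mitochondrial DNA are transcribed as long precursors that are then cut into single mRNAs. In adult heart muscle, which is rich in mitochondria, mitochondrial mRNAs make up a large part of the RNA.

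Mouse hearts of the strain given as C57B/L6 and the age given as 12 weeks in the labels (the methods name C57BL/6J mice of a younger age) were flushed with and kept in ice-cold HTK, a cardioplegic preservation solution. Storage lasted 0 h, 4 h or 8 h, and every heart, the 0 h control included, was then perfused ex vivo with Krebs buffer for 1 h. The left ventricle (LV) and right ventricle (RV) were sampled, with 3 libraries for each ventricle and storage time. The groups hold no heart that was left unperfused and none placed in a recipient, so that 0 h stands for excision and reperfusion without storage. The methods describe hearts of both sexes. Nothing in the labels ties a replicate number to one animal, and p-values therefore measure the spread between these libraries.

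The libraries held 22552581 to 46236771 estimated counts, where an estimated count is a read assigned to a transcript in proportion when several transcripts share it. All 7 cardiomyocyte markers were above 0 in all libraries, and their summed level was 41313 to 67072 CPM (counts scaled to a common library total) in 17 libraries and 27785 in RV 8 h replicate 3. That library stood apart in make-up, and LV 0 h replicate 1 stood apart in mean fragment length (237.8 bases, against 188.1 to 210.6 in the others). Main results that rest on these libraries are also given without them. In whole tissue, fewer cells of a type and less RNA per cell cannot be told apart.

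mt-Nd1 (chrM:2751-3707) and mt-Nd2 (chrM:3914-4951) lie on their own stretches of the plus strand of GRCm38. mt-Nd3 (chrM:9459-9806), mt-Nd4l (chrM:9877-10173), mt-Nd4 (chrM:10167-11544) and mt-Nd5 (chrM:11742-13565) follow on the same strand. mt-Nd6 (chrM:13552-14070) is read from the minus strand. Each gene was covered by 1 transcript without introns, and the RNA library enriched poly(A) RNA according to the methods of the study. mt-Nd6 is commonly described as the member whose mRNA carries no poly(A) tail.

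The sequences that bear on how reads can be assigned are shown first, from GENCODE M21 transcripts of GRCm38. mt-Nd4l and mt-Nd4 overlap by 7 bases, which are in capitals in the last 60 bases of the former and the first 60 of the latter:
mt-Nd4l (chrM:10114-10173): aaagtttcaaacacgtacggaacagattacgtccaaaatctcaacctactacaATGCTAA
mt-Nd4 (chrM:10167-10226): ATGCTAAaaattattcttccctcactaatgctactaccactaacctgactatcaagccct
The ends of mt-Nd5 and mt-Nd6 overlap by 14 bases on opposite strands, again in capitals and each read 5′ to 3′ along its own gene:
mt-Nd5 (chrM:13506-13565): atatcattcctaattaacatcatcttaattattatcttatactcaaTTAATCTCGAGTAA
mt-Nd6 (chrM:13552-13611): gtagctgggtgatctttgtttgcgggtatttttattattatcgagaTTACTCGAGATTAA
mt-Nd3 has a nuclear copy, the unprocessed pseudogene Gm28438 on the minus strand of chromosome 1 (chr1:24612775-24613119). It matched mt-Nd3 at 99.71% over 345 bases, and the single differing base is in capitals in the first 60 bases of both:
mt-Nd3 (chrM:9459-9518): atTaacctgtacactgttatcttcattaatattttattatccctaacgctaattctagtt
Gm28438 (chr1:24613060-24613119): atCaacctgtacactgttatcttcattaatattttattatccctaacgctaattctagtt
The difference is T3C, with mt-Nd3 first and positions counted from 1 at the first base of the gene. Only reads that cover this base, or the last bases of mt-Nd3 that the copy lacks, can tell the pair apart.

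Together the 7 mRNAs took 6.58% to 9.99% of all estimated counts. In LV the share was 6.86%, 8.00% and 8.22% at 0 h, 7.25%, 7.67% and 6.86% at 4 h, and 8.96%, 9.90% and 8.36% at 8 h. In RV it was 6.58%, 8.20% and 9.75% at 0 h, 6.85%, 8.31% and 7.70% at 4 h, and 9.30%, 9.99% and 7.68% at 8 h. The 3 LV libraries at 8 h lay above all LV libraries at 0 h and 4 h, whereas the RV groups overlapped. Leaving out LV 0 h replicate 1 kept the LV order, and leaving out RV 8 h replicate 3 set RV at 8 h above 4 h but not above 0 h. The ratio of the 8 h mean to the 0 h mean was 1.18 in LV. Against all counts not assigned to mitochondrial DNA, here called nuclear counts, it was 1.30. There were 9.02, 10.8 and 11.4 mt-Nd counts per 100 nuclear counts at 0 h and 13.2, 15.1 and 12.5 at 8 h. These nuclear counts include reads given to nuclear copies of mitochondrial genes and to transcripts left unmatched.

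All 13 mitochondrial mRNAs together took 24.0%, 25.9% and 28.2% of counts at 0 h and 31.9%, 34.3% and 33.3% at 8 h in LV, a ratio of means of 1.28. In RV they took 22.6%, 26.4% and 32.5% at 0 h and 34.1%, 33.5% and 33.2% at 8 h, a ratio of 1.24. The 8 h libraries lay above the 0 h libraries in both ventricles, in RV narrowly, at 33.2% against 32.5%. Reads given to nuclear copies are left out of this share. One copy, Gm29216, held 4.70% to 21.6% of its pair with mt-Co1, so that the narrow RV order may depend on how reads were divided. The mt-Nd part of mitochondrial mRNA was lower in mean at 8 h, at 28.1%, 28.9% and 25.1% in LV against 28.6%, 30.9% and 29.2% at 0 h. In RV it was 27.3%, 29.8% and 23.1% against 29.1%, 31.1% and 30.0%, and the groups overlapped in both ventricles.

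**Figure D1:**
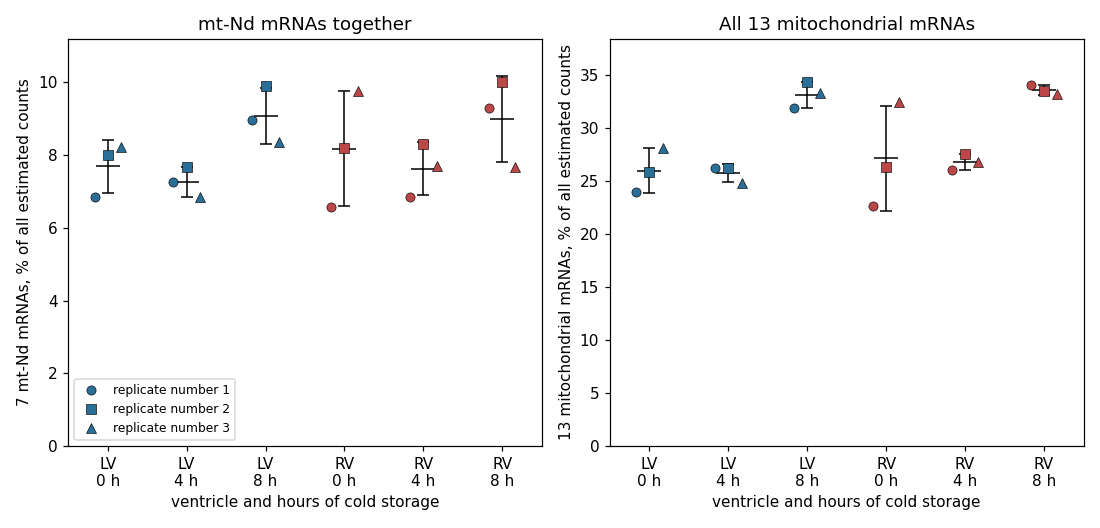
Share of all estimated counts in each library, in percent, for the 7 mt-Nd mRNAs (left panel) and all 13 mitochondrial mRNAs (right panel), by ventricle and hours of storage. Symbols are libraries, the short line is the mean and the bar the SD of 3. LV at 8 h sits at 8.36% to 9.90% on the left and both ventricles at 8 h sit at 31.9% to 34.3% on the right.

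mt-Nd1, a core membrane-arm subunit at the junction with the peripheral arm, had 16144, 16640 and 20472 CPM in LV at 0 h. It had 19776, 17346 and 19141 CPM at 4 h and 22974, 26847 and 25196 CPM at 8 h, where CPM is scaled by the TMM method. In LV all 8 h libraries exceeded those at 0 h and 4 h. RV gave 14830, 16657 and 25726 CPM at 0 h, 21216, 19605 and 20379 CPM at 4 h and 27519, 27149 and 24667 CPM at 8 h, so that 1 library at 0 h overlapped with 8 h.

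mt-Nd2 and mt-Nd4 encode proton-pumping subunits of the membrane arm. mt-Nd2 had 12451, 13482 and 14342 CPM in LV at 0 h and 19562, 20181 and 16374 CPM at 8 h. mt-Nd4 had 19787, 21998 and 22961 CPM at 0 h and 27001, 31790 and 29084 CPM at 8 h. Both were higher in every LV library at 8 h than at 0 h. In RV mt-Nd2 had 11271, 13601 and 17892 CPM at 0 h and 21447, 21199 and 13893 CPM at 8 h. For mt-Nd4 the RV values were 18338, 22259 and 29408 CPM at 0 h and 30408, 32800 and 26056 CPM at 8 h, and the RV groups overlapped for both genes.

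mt-Nd4l, a small membrane-arm subunit whose gene runs into mt-Nd4, had 1773, 2833 and 2607 CPM in LV at 0 h and 2884, 3915 and 2603 CPM at 8 h. RV had 1929, 2763 and 3082 CPM at 0 h and 3066, 3949 and 1988 CPM at 8 h. These groups overlapped in both ventricles. The library with the highest mt-Nd4l share of the 7 mRNAs was replicate 2 in 6 of 6 groups.

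In the test across all genes, a gene was called when the adjusted p was under 0.1 and the fold change over 1.5 (edgeR quasi-likelihood test, Benjamini-Hochberg adjustment). All 7 mRNAs passed the filter on low counts in every fit. From 0 h to 8 h in LV, mt-Nd1 (log2 fold change 0.50 ± 0.13 SE, adjusted p = 0.0679), mt-Nd2 (0.48 ± 0.12, adjusted p = 0.0624) and mt-Nd4 (0.44 ± 0.11, adjusted p = 0.0617) passed the p limit by edgeR. None reached 1.5-fold, so that 0 of 7 were called, against 6.72% of all genes tested, and 3 of 7 passed the p limit alone in the higher direction, against 6.1% of all genes. The same 3 had an unadjusted p under 0.05, against 23.3% of all genes, and DESeq2 called 0, against 6.55%. In CPM all 8 h libraries lay above all 0 h libraries for mt-Nd1, mt-Nd2, mt-Nd3 and mt-Nd4, against 15.5% of all genes, and below them for 0 of 7, against 13.1%. Without LV 0 h replicate 1 the changes were 0.43, 0.43 and 0.38 and the lowest of the 3 adjusted p values was 0.143 (edgeR). Without LV 0 h replicate 3, mt-Nd1 was called at 0.61 (edgeR adjusted p = 0.0859). The share of all genes called in that fit is not given here, so this call has no background beside it.

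mt-Nd4l changed by 0.39 ± 0.22 (edgeR adjusted p = 0.319) and mt-Nd3 by 0.41 ± 0.18 (adjusted p = 0.216) in LV on the log2 scale, neither passing. The values for mt-Nd6 (0.27 ± 0.39, adjusted p = 0.704) and mt-Nd5 (0.06 ± 0.15, adjusted p = 0.830) were lower.

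In RV 0 of 7 were called from 0 h to 8 h by edgeR, against 18.2% of all genes, with 1 unadjusted p under 0.05 (mt-Nd3), against 30.8%. In CPM the 8 h libraries lay above all 0 h libraries for 0 of 7, against 18.5% of all genes. The log2 changes were 0.48 ± 0.24 for mt-Nd1 (edgeR adjusted p = 0.200), 0.41 ± 0.25 for mt-Nd2 (0.270), 0.74 ± 0.32 for mt-Nd3 (0.150) and 0.36 ± 0.23 for mt-Nd4 (0.301). They were 0.22 ± 0.29 for mt-Nd4l (edgeR adjusted p = 0.609), 0.09 ± 0.29 for mt-Nd5 (0.837) and 0.58 ± 0.36 for mt-Nd6 (0.281). With the replicate number as a block, mt-Nd3 was called in RV at 0.78 ± 0.24 (edgeR adjusted p = 0.0556), in a fit that called 24.3% of all genes, and DESeq2 called the same gene at 0.77 (adjusted p = 0.0696, against 13.3% of all genes). The remaining 6 were not called in either. In the blocked fit without RV 8 h replicate 3, which called 14.0% of all genes, mt-Nd3 was not called (0.76, edgeR adjusted p = 0.122) and mt-Nd2 was (0.70, adjusted p = 0.076). Without that library and without the block, the log2 change of mt-Nd3 was 0.51 (edgeR adjusted p = 0.359) and those of the other 6 ran from 0.12 to 0.59, none called. Without RV 0 h replicate 3, mt-Nd1 (0.75, edgeR adjusted p = 0.073) and mt-Nd3 (1.10, adjusted p = 0.0742) were called, and without RV 8 h replicate 2 mt-Nd3 (0.90, adjusted p = 0.0785). The shares of all genes called in these last fits are not given here, so the calls are not read as a result about the 7.

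**Figure D2:**
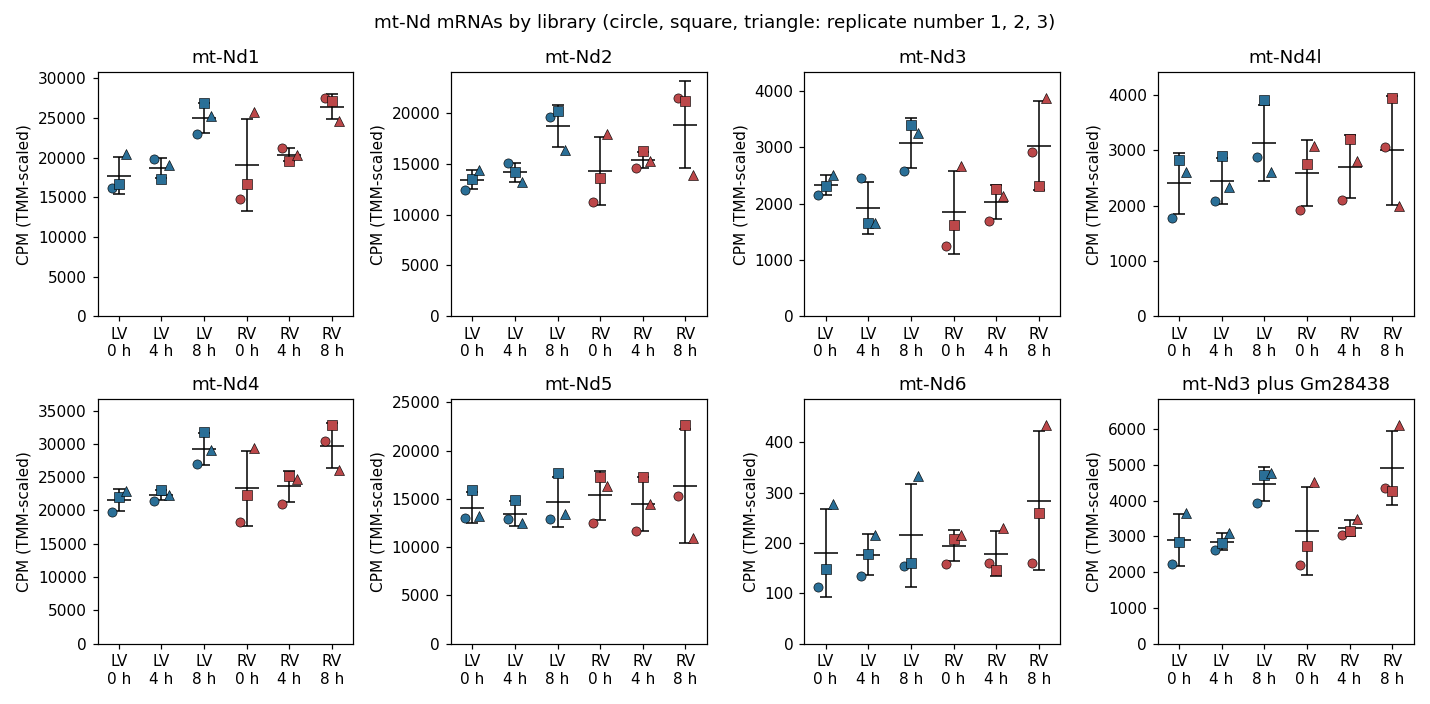
TMM-scaled CPM of each mt-Nd mRNA in each library, by ventricle and hours of storage, with the sum of mt-Nd3 and its nuclear copy in the last panel. Symbols are libraries, lines and bars the mean and SD of 3. For mt-Nd1 the LV libraries at 8 h lie at 22974 to 26847 CPM, above the 16144 to 20472 CPM at 0 h, while mt-Nd5 shows no such step.

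Storage for 4 h gave smaller differences. The log2 changes of the 7 mRNAs against 0 h lay between -0.28 and 0.08 in LV, and in RV between -0.10 and 0.16. The -0.28 was that of mt-Nd3, which shares reads with Gm28438. Under alternatives that kept all libraries it ranged from -0.32 to -0.005. By edgeR 0 of 7 were called in either ventricle (lowest adjusted p 0.520 and 0.871), with 0 called by DESeq2, against 2.79% and 10.1% of all genes called by edgeR. An unadjusted p under 0.05 was found for 0 of 7 in both, against 15.6% and 21.5% of all genes. With the replicate block in RV 13.9% of all genes and 0 of the 7 were called. Between 4 h and 8 h the log2 changes were 0.12 to 0.68 in LV and 0.14 to 0.68 in RV. Again 0 of 7 were called by edgeR, and 0.0% of all genes were. The unadjusted p was under 0.05 for 4 of 7 in LV (mt-Nd1, mt-Nd2, mt-Nd3 and mt-Nd4), against 8.1% of all genes, and 0 of 7 in RV, against 6.57%. All 8 h libraries lay above all 4 h libraries in CPM for the same 4 genes in LV, against 5.38% of all genes, and for mt-Nd1, mt-Nd3 and mt-Nd4 in RV, against 6.0%. DESeq2 called 1 of 7 in LV, which was mt-Nd3, against 0.311% of all genes, and 0 in RV.

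mt-Nd5, the largest mitochondrially encoded subunit and the proton pump at the far end of the membrane arm, showed no separation between storage times in CPM. In LV its CPM was 13071, 15942 and 13238 at 0 h, 12937, 14935 and 12520 at 4 h and 12890, 17661 and 13441 at 8 h. In RV it was 12463, 17287 and 16314 at 0 h, 11681, 17228 and 14474 at 4 h and 15306, 22630 and 10965 at 8 h. These groups overlapped in both ventricles.

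At 8 h mt-Nd5 made up less of the 7 in LV. Its part of their counts was 20.0%, 21.7% and 17.3% at 0 h, 17.5%, 20.1% and 17.5% at 4 h, and 14.6%, 17.0% and 14.9% at 8 h. All LV values at 8 h lay below those at 0 h and 4 h, also without LV 0 h replicate 1. In CPM the LV groups at 4 h and 8 h overlapped for mt-Nd5, where 7.59% of all genes had every 8 h library below every 4 h library. In RV it was 20.7%, 23.2% and 17.1% at 0 h, 16.1%, 20.5% and 18.1% at 4 h, and 15.2%, 20.5% and 13.4% at 8 h, with overlap.

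Set against single genes, mt-Nd5 had 81.0, 95.8 and 64.7 counts per 100 mt-Nd1 counts in LV at 0 h and 56.1, 65.8 and 53.3 at 8 h. Per 100 counts of mt-Cytb, the complex III gene that follows on the same strand, it had 53.7, 62.2 and 47.9 at 0 h and 38.8, 48.0 and 35.9 at 8 h. In both ratios 1 LV library at 8 h reached the lowest at 0 h. RV had 58.5, 70.6 and 47.8 per 100 mt-Cytb counts at 0 h and 39.9, 61.9 and 32.5 at 8 h. On the deposited TPM scale (transcripts scaled for length to a fixed total per library), mean mt-Nd5 at 8 h was 0.84 times that at 0 h in LV and 0.83 times in RV, with overlapping groups.

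The mt-Nd5 part also went with the replicate number. Replicate 2 had the highest mt-Nd5 part of the 7 mRNAs in 6 of 6 groups and also the highest mt-Nd5 CPM in 6 of 6. Within one number the mt-Nd5 part was lower at 8 h than at 0 h in 3 of 3 RV comparisons. It was also lower in 3 of 3 in LV, where any pairing gives this because the groups do not overlap. Counts per 100 mt-Cytb counts were lower at 8 h in 3 of 3 comparisons in each ventricle. LV and RV libraries of one number deviated together, so the ventricles are not independent here. What the numbers stand for was not tested.

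**Figure D3:**
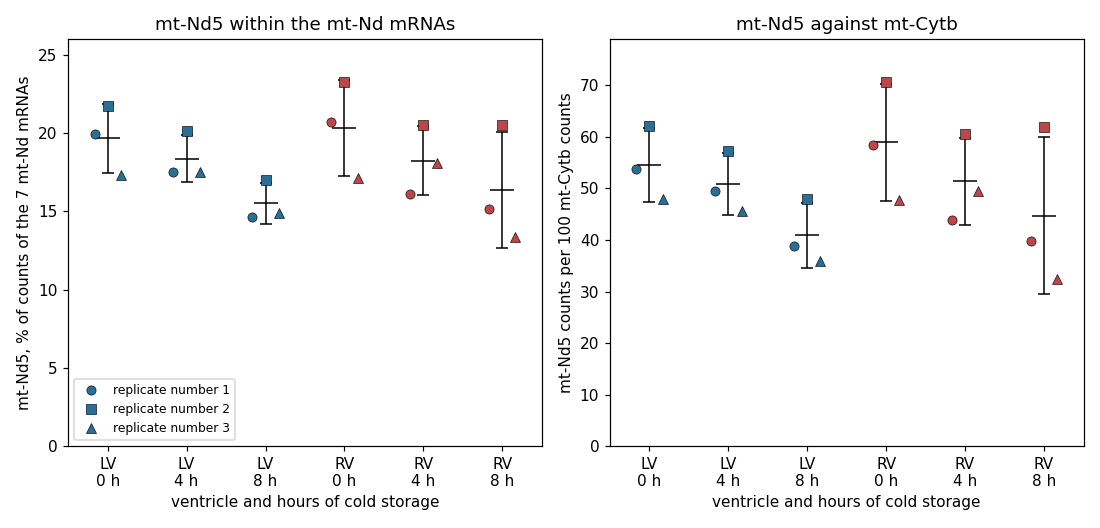
mt-Nd5 as a percentage of the counts of all 7 mt-Nd mRNAs (left panel) and as counts per 100 mt-Cytb counts (right panel) in each library, by ventricle and hours of storage. Lines and bars are the mean and SD of 3. In LV the left panel shows 17.3% to 21.7% at 0 h and 14.6% to 17.0% at 8 h, and replicate 2 (squares) is highest in every group.

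mt-Nd3, a small subunit near the junction of both arms, had 2160, 2305 and 2507 CPM in LV at 0 h, 2444, 1651 and 1654 CPM at 4 h and 2571, 3394 and 3245 CPM at 8 h. RV had 1243, 1610 and 2671 CPM at 0 h, 1683, 2253 and 2137 CPM at 4 h and 2907, 2308 and 3870 CPM at 8 h. In LV the 8 h libraries lay above those at 0 h, and in RV they lay above those at 4 h but overlapped with 0 h.

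These values depend on how reads were divided with Gm28438, whose start differs from mt-Nd3 by the base shown above. The copy held 2.47% of the counts of the pair in LV 0 h replicate 1 and 6.81% in LV 4 h replicate 1. In the other 16 libraries it held 19.0% to 46.6%. The library with the lowest share was also the one with the longest fragments, and the part of fragment length was not tested. The pair together had 2214, 2844 and 3668 CPM in LV at 0 h, 2623, 2817 and 3099 CPM at 4 h and 3929, 4724 and 4767 CPM at 8 h, which separates 8 h from both earlier times. In RV the pair had 2191, 2720 and 4527 CPM at 0 h, 3050, 3143 and 3481 CPM at 4 h and 4367, 4257 and 6108 CPM at 8 h, separated from 4 h but not from 0 h.

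With the copy added to mt-Nd3, the gene was called in LV from 0 h to 8 h at a log2 change of 0.62 ± 0.18 (edgeR adjusted p = 0.0930), in a fit that called 6.75% of all genes. Without LV 0 h replicate 1 it was not called (0.46, adjusted p = 0.188). The other nuclear copies of mt-Nd genes took little. Gm28439, identical to mt-Nd4 over 876 bases, held at most 0.25% of its pair, and Gm10222, identical to mt-Nd4l over 294 bases, held 0 counts. No copy of mt-Nd1 of at least 100 bases at 90% identity was found among the nuclear transcripts.

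**Figure D4:**
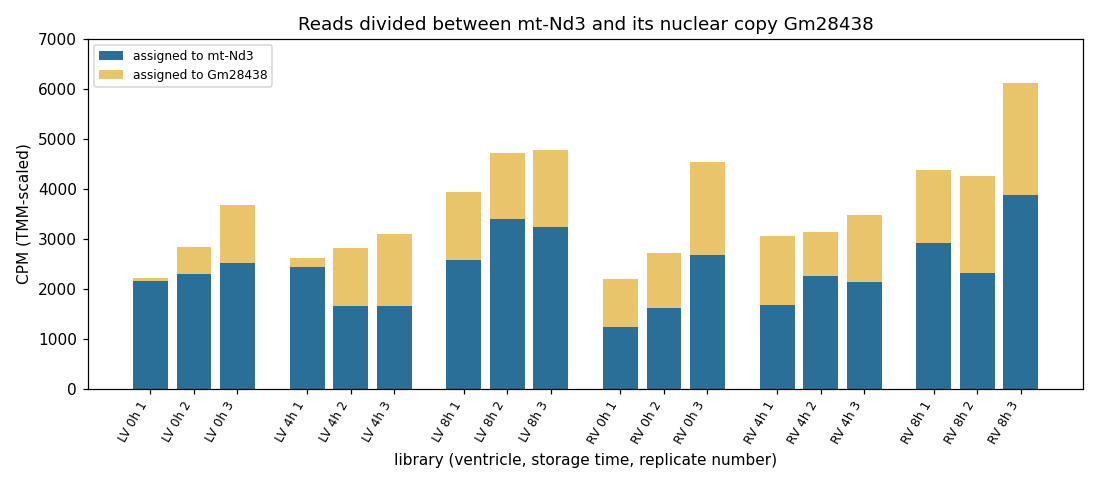
TMM-scaled CPM assigned to mt-Nd3 (lower bar) and to its nuclear copy Gm28438 (upper bar) in each of the 18 libraries. The upper bar is nearly missing in replicate 1 of LV at 0 h, where the copy holds 2.47% of the pair, and reaches 46.6% of the pair in LV 4 h replicate 3.

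mt-Nd6, a membrane-arm subunit and the one member read from the other strand, was far below the rest. In LV it had 112, 149 and 278 CPM at 0 h, 135, 179 and 216 CPM at 4 h and 154, 159 and 334 CPM at 8 h. RV had 159, 208 and 216 CPM at 0 h, 161, 146 and 229 CPM at 4 h and 160, 259 and 434 CPM at 8 h. The groups overlapped, and replicate 3 was the highest in 6 of 6. Without RV 8 h replicate 3, the RV log2 change from 0 h to 8 h was 0.12 (edgeR adjusted p = 0.838) in place of 0.58, and without LV 8 h replicate 3 the LV change was -0.20 (adjusted p = 0.811) in place of 0.27.

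Its base composition mirrors its strand. mt-Nd6 held 28.1% G and 5.97% C in the sense of its mRNA, whereas the other 6 held 8.0% to 11.6% G and 22.1% to 30.0% C. The default counting by Kallisto takes no account of strand, so that reads of mt-Nd6 and reads antisense to it, and the 14 bases shared with mt-Nd5, cannot be told apart in these counts. Replication-dependent histone mRNAs, another class commonly described as lacking poly(A), summed to 154 to 245 CPM in 17 libraries and 116 CPM in RV 8 h replicate 3, the library with the highest mt-Nd6. Whether poly(A) selection had a part in the mt-Nd6 level was not tested.

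Per length, and as the reads were assigned, the members had an order that varied little between groups. On the deposited TPM scale mt-Nd1 was above mt-Nd2, mt-Nd3, mt-Nd4, mt-Nd5 and mt-Nd6 in all 18 libraries, with a median TPM ratio to mt-Nd4 of 1.31. It was above mt-Nd4l in 14 of 18. The neighbours mt-Nd4l and mt-Nd4 did not separate, mt-Nd4l being higher in 10 of 18 with a median TPM ratio of 1.01. mt-Nd2 lay below mt-Nd4 in 17 of 18, at a median TPM ratio of 0.87.

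mt-Nd3 lay below mt-Nd2 in 16 of 18 libraries, at a median TPM ratio of 0.70, with reads given to Gm28438 left out. That copy held 2.47% to 46.6% of the counts of the pair. The place of mt-Nd3 relative to mt-Nd1, mt-Nd2, mt-Nd4l and mt-Nd4 therefore depends on how the reads were divided and is not settled here. mt-Nd5 lay below mt-Nd3 in 16 of 18, at a median TPM ratio of 0.67. mt-Nd5 was at 0.21 to 0.48 times the TPM of mt-Nd1. mt-Nd1 exceeded mt-Nd6 by a median ratio of 46.1 (range 24.5 to 74.3). The TPM of genes as short as mt-Nd4l (297 bases, effective length 101.3 to 130.8 bases) rests on a large length correction.

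LV and RV libraries of one storage time and number deviated together from their group means in all 9 pairs, so that the ventricles could be compared within pairs. The 7 mRNAs together had the higher share in LV in 3 pairs and in RV in 6, with a median LV to RV ratio of 0.976 (range 0.843 to 1.09). In CPM mt-Nd1, mt-Nd4l and mt-Nd6 were higher in RV in 7 of 9, mt-Nd2, mt-Nd4 and mt-Nd5 in 6 of 9 and mt-Nd3 in 5 of 9. With Gm28438 added, mt-Nd3 was higher in RV in 6 of 9. Its log2 LV to RV difference at 0 h ranged from -0.11 to 0.41 under alternatives that kept all libraries.

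Between the ventricles, 0 of 7 were called by edgeR at 0 h, 4 h or 8 h (lowest adjusted p 1.0, 1.0 and 0.732), and 0 by DESeq2. The unadjusted p was under 0.05 for 0 of 7, against 3.21%, 2.96% and 11.1% of all genes. Over all genes 0.159%, 0.0133% and 0.0331% were called. With the pair as a block the share of all genes called was 1.85%, 1.93% and 8.78%, and still 0 of the 7 were called. The lowest blocked adjusted p was that of mt-Nd6 at 8 h, with a log2 LV to RV difference of -0.38 ± 0.17 (edgeR adjusted p = 0.133). In the blocked fit at 8 h without RV 8 h replicate 3, 0 of 7 were called, against 10.2% of all genes. There mt-Nd6 had -0.38 (edgeR adjusted p = 0.215), and mt-Nd5 passed the p limit alone at -0.30 (adjusted p = 0.0524). That was 1 of 7 with the lower level in LV, beside 2424 of 15274 genes at the same limit and direction. The difference between LV and RV in the change from 0 h was called for 0 of 7 at 4 h and at 8 h (edgeR adjusted p = 1.0 for all, DESeq2 0), where 0.0% of all genes were called. An unadjusted p under 0.05 was found for 0 of 7 there, against 1.05% and 4.16% of all genes. With the pair as a block 0.305% and 5.71% of all genes and 0 of the 7 were called.

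The other 6 mitochondrial mRNAs also had log2 changes above 0 from 0 h to 8 h in both ventricles. They encode cytochrome b, subunits of cytochrome c oxidase and subunits of ATP synthase. In LV 2 of 6 were called higher by edgeR, mt-Co2 (0.63 ± 0.14, adjusted p = 0.0487) and mt-Co3 (0.60 ± 0.14, adjusted p = 0.0503), and 5 of 6 passed the p limit alone, against 6.72% and 6.1% of all genes. In RV 2 of 6 were called higher, again mt-Co2 (0.77 ± 0.27, adjusted p = 0.0929) and mt-Co3 (0.77 ± 0.26, adjusted p = 0.082), against 18.2% of all genes. The median log2 change of these 6 was 0.55 in LV and 0.54 in RV, that of the 7 mt-Nd mRNAs 0.41 and 0.41, and that of all genes tested -0.02 and -0.07. Both LV calls were lost with all 18 libraries in the fit (edgeR adjusted p = 0.115 and 0.109), and both RV calls with no filter on low counts (adjusted p = 0.193 and 0.185). The RV calls of both were lost without RV 8 h replicate 3 (adjusted p = 0.175 and 0.14) and without any of 6 other RV libraries. The LV calls of both were lost without LV 0 h replicate 1 (adjusted p = 0.108 and 0.122), LV 0 h replicate 2 or LV 8 h replicate 3, that of mt-Co2 also without LV 0 h replicate 3, and that of mt-Co3 with effective-length offsets (0.58, under 1.5-fold). A nuclear copy of mt-Co2, Gm28661, is identical over 681 bases and held up to 11.7% of its pair. Only reads over the last bases of mt-Co2, which the copy lacks, can tell that pair apart. Gm29216, which matched mt-Co1 at 99.8% over 483 bases, held 4.70% to 21.6% of its pair, and neither copy is counted in the share of the 13 mRNAs.

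**Figure D5:**
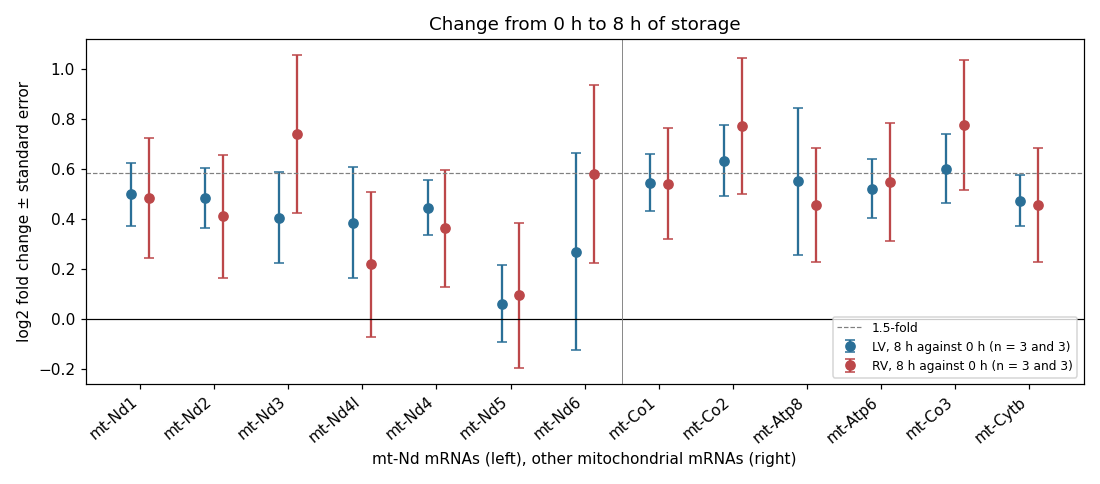
Log2 fold change from 0 h to 8 h with its standard error (edgeR, 3 libraries against 3) for the 7 mt-Nd mRNAs and the 6 other mitochondrial mRNAs in LV and RV. The dashed line marks 1.5-fold. mt-Nd5 lies near 0 in both ventricles (0.06 and 0.09), and mt-Co2 and mt-Co3 lie above the line in both.

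The nuclear-encoded partners are read against 6.72% of all genes called in LV and 18.2% in RV from 0 h to 8 h, and 24.3% in the blocked RV fit. Of 6 nuclear core subunits, which carry the electron-transfer path of the peripheral arm, 1 was called lower and 0 higher in LV from 0 h to 8 h. This was Ndufs1, the largest iron-sulfur subunit, at 399 ± 113 CPM (SD, n = 3) at 8 h and 658 ± 71.6 CPM at 0 h (log2 change -0.72 ± 0.19, edgeR adjusted p = 0.0762). It was not called without any one of the LV 0 h libraries (adjusted p from 0.147 to 0.227) or without LV 4 h replicate 1 or 2 or LV 8 h replicate 1 or 3, nor with all 18 libraries in the fit (adjusted p = 0.308). In RV 0 of 6 were called, except that Ndufs1 was without RV 8 h replicate 2 (-1.17, edgeR adjusted p = 0.0857), and all 6 log2 changes were below 0 (median -0.34, against -0.07 over all genes).

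Of 29 accessory subunits measured, which surround the core, 0 were called in either ventricle by edgeR. The log2 change was above 0 for 26 of 29 in LV (median 0.18) and for 9 of 29 in RV (median -0.10). Ndufa10 had -0.06 ± 0.11 in LV and -0.24 ± 0.19 in RV, and Ndufb9 0.18 ± 0.15 and -0.02 ± 0.20. Of 16 assembly factors, which help to build complex I, 0 were called (median -0.04 in LV and -0.32 in RV). Ecsit had -0.05 ± 0.11 in LV and -0.32 ± 0.17 in RV, and Tmem70 -0.04 ± 0.12 and -0.24 ± 0.22. Without RV 8 h replicate 3 the RV change of Tmem70 was 0.011. In fits without 1 RV library, the RV change ranged from -0.48 to -0.10 for Ecsit and from -0.39 to -0.091 for Ndufa10. The RV medians of the nuclear lists, above and below, are given only with RV 8 h replicate 3 included. With the replicate block in RV, Tmem186 was called lower at -0.64 ± 0.23 (edgeR adjusted p = 0.0846), but not without RV 8 h replicate 3 (-0.36, adjusted p = 0.242). In the fit without the block, Tmem186 was called when RV 8 h replicate 2 was left out (-0.96, edgeR adjusted p = 0.0195).

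Of 29 factors of mitochondrial transcription and RNA handling, 0 were called by edgeR in either ventricle (median log2 change -0.10 in LV and -0.33 in RV). Lrpprc, which binds and stabilises mitochondrial mRNAs, had 125 ± 41.0 CPM (SD, n = 3) in LV at 8 h and 204 ± 24.5 CPM at 0 h, a log2 change of -0.71 ± 0.22 (edgeR adjusted p = 0.110), which DESeq2 called (-0.71, adjusted p = 0.0259). It had -0.60 ± 0.42 in RV (edgeR adjusted p = 0.342), -0.18 without RV 8 h replicate 3 (adjusted p = 0.677) and -1.08 without RV 8 h replicate 2, where it was called (adjusted p = 0.0897). Fastk, of a family of mitochondrial RNA-binding proteins, had -0.07 ± 0.13 in LV and -0.42 ± 0.22 in RV. With the replicate block in RV, 2 were called lower from 0 h to 8 h, Polrmt, the mitochondrial RNA polymerase (-0.60 ± 0.22, edgeR adjusted p = 0.0854), and Fastkd1 (-0.62 ± 0.20, adjusted p = 0.0657). Pnpt1, a mitochondrial exoribonuclease subunit, was called higher there (0.91 ± 0.33, edgeR adjusted p = 0.0839). Without the block, DESeq2 also called Pnpt1 (1.14, adjusted p = 0.0497), against 13.3% of all genes. Fastkd1 was also called by edgeR with all libraries in the fit (-0.60, adjusted p = 0.0453). Without RV 8 h replicate 2 and without the block, edgeR called Polrmt (-0.88), Fastkd1 (-0.91) and Pnpt1 (1.30), with adjusted p from 0.00959 to 0.0772. Without RV 8 h replicate 3 the blocked fit called none of these 3 (Polrmt -0.31, Fastkd1 -0.40, Pnpt1 0.65, edgeR adjusted p from 0.192 to 0.243). The blocked RV fit from 0 h to 4 h called 1 of the 29, Mterf1a, lower, against 13.9% of all genes called.

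Between LV and RV 0 genes of these 4 nuclear lists were called by edgeR at any storage time. With the pair as a block at 8 h, 0 were called but several passed the p limit alone with the higher level in LV: 2 of 6 core subunits, 12 of 29 accessory subunits, 9 of 16 assembly factors and 9 of 29 RNA factors, against 15.5% of all genes. In the same fit 0 of the 7 mt-Nd mRNAs did. Without RV 8 h replicate 3 the counts were 1 of 6, 5 of 29, 4 of 16 and 4 of 29, against 12.2% of all genes.

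Among 8116 genes with a mean of at least 10 CPM, likeness to the summed mt-Nd mRNAs was measured as the SD over the 18 libraries of the log2 ratio of a gene to that sum. The median SD was 0.365. mt-Nd4 (0.04), mt-Nd2 (0.0887), mt-Cytb (0.0919), mt-Co1 (0.108) and mt-Nd1 (0.121) had the smallest. mt-Nd5 (0.219), mt-Nd3 (0.318) and mt-Nd6 (0.483) varied more, and mt-Nd6 ranked 6233. Each member is itself part of the sum. The nuclear genes with the smallest SD were Sh3bgrl (0.151), Gxylt1 (0.168), Lipo3 (0.173), Smim15 (0.175) and Selenof (0.178), and with only 18 libraries and shared scaling these are descriptions.

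Marker sums differed beside the mitochondrial share. The 7 cardiomyocyte markers summed to 55693 to 67072 CPM in LV at 0 h and 41313 to 49458 CPM at 8 h, and in RV to 58573 to 66695 and 27785 to 55366 CPM. Smooth muscle and pericyte markers, 4 of 4 above 0 in all libraries, summed to 647 to 746 CPM in LV at 0 h and 781 to 898 CPM at 8 h. In RV their sums overlapped, at 638 to 851 CPM at 0 h and 793 to 1220 CPM at 8 h. Fibroblast markers, 5 of 5 above 0, summed to 488 to 556 CPM in LV at 0 h and 583 to 797 CPM at 8 h, and in RV to 607 to 682 and 648 to 1182 CPM. Endothelial markers, 5 of 5 above 0, overlapped in LV, at 618 to 814 and 604 to 823 CPM, and in RV, at 577 to 887 and 548 to 790 CPM. Erythroid markers, 4 of 4 above 0, summed to 4.51 to 6.14 CPM in LV at 0 h and 11.8 to 194 CPM at 8 h, and in RV to 2.40 to 5.88 and 3.96 to 52.0 CPM. Macrophage and leukocyte markers (5 of 5 above 0, 48.0 to 131 CPM over all libraries) and atrial markers (4 of 4, 53.5 to 799.6 CPM) overlapped between 0 h and 8 h. The part of cell make-up in the mt-Nd values was not tested.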

How the data were processed

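RNA from 18 LV and RV samples of mouse heart was sequenced as poly(A)-selected, paired-end libraries. Per the paper's methods and labels, the authors quantified reads with Kallisto against GRCm38. They deposited estimated counts per transcript, not normalized between libraries, and TPM values, scaled within each library. Columns of transcript length and effective length were deposited beside them. By GENCODE M21, transcripts were added up into 34989 genes, with 1259 of 111462 transcripts (0.311% to 0.383% of counts) left unmatched, and rounded. The 7 genes and all lists were chosen with earlier results of these data known.

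After filterByExpr and TMM scaling, edgeR 4.0.16 (R 4.3.3) gave quasi-likelihood tests across all genes. Calls needed a Benjamini-Hochberg adjusted p under 0.1 over all genes and a fold over 1.5. Changes with storage were fitted on the 9 libraries of a ventricle, and LV against RV and the differences in change on all 18. Fits were tested on simulated counts. Alternatives were DESeq2 1.42.0, RLE size factors, no filter, scaling on nuclear genes, added nuclear copies, all libraries in the fit, other denominators, the replicate block and each library left out. Offsets for effective length, the block combined with added copies or nuclear scaling, and the block or added copies without a library that stands apart, were chosen after seeing the data.

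Replicate numbers of the labels paired LV with RV libraries (correlation of deviations from group means 0.559 to 0.844 in 9 of 9 pairs). The methods state that LV and RV tissue was collected after perfusion, not that a number marks 1 heart. Within RV all 9 same-numbered pairs correlated above 0.1 (0.155 to 0.571), and the blocked values are given there where they change a call. Within LV the lowest was -0.04.

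Named nuclear genes were, per list, those with the largest called change, otherwise those with the highest mean level. Genes called with the block but not in the main fit were added after their values were seen. Total estimated counts were 22552581 to 46236771 per library, and intervals from counts alone were not used because the spread between libraries sets the error. 1 nuclear core subunit is not reported here. Protein sequences were not analysed here.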

Additional observations from a re-analysis of the deposited data

How the results depend on the processing

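Over 14 values of change from 0 h to 8 h (7 mRNAs in 2 ventricles), 263 of 280 values under alternatives kept direction and side of the call, 12 became calls and 5 turned sign. In the other 9 comparisons, where changes lay near 0, 120 of 1561 turned sign and 1 became a call.

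Mt-Nd genes called from 0 h to 8 h in LV rose from 0 to 1 with nuclear copies added, alone or with the replicate block (mt-Nd3, 0.62 and 0.65), to 3 with no fold limit, and ranged from 0 to 1 with each library left out. In LV from 4 h to 8 h DESeq2 called 1. In RV from 0 h to 8 h 1 was called, mt-Nd3, under the replicate block (0.78), the block with added copies (0.70), the block with nuclear scaling (0.77), all libraries in the fit (0.72) and DESeq2 (0.77), and 0 to 2 with each library left out. The cause was not tested. For the block combined with other settings, all libraries in the fit and each library left out, these calls have no background beside them. The share of all genes called there is not given here. Same-numbered LV libraries correlated best with their own number in 8 of 9, and the replicate block in LV called 0 of 7 mt-Nd mRNAs, while Lrpprc was called (-0.75, edgeR adjusted p = 0.0435). The RV block without RV 8 h replicate 3 called 1 mt-Nd mRNA, mt-Nd2 (0.70). With all libraries the block changed no other mt-Nd call.

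The difference of the mean log2 mt-Nd share between 8 h and 0 h was 0.24 in LV and 0.15 in RV. With each library left out it ranged from 0.16 to 0.30 in LV and, in RV, from -0.0011 (without RV 0 h replicate 1) to 0.28. As a share of mitochondrial mRNA it was -0.11 and -0.18, against nuclear counts 0.39 in LV, and as a share of TPM 0.070 in LV. These denominators differ by construction.

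Values that turned sign with a library left out ranged in LV from -0.057 to 0.16 for mt-Nd5, -0.20 to 0.73 for mt-Nd6, -0.10 to 0.058 for Tmem70 and -0.14 to 0.048 for Fastk. In RV they ranged from -0.030 to 0.44 for mt-Nd4l, -0.22 to 0.31 for mt-Nd5, -0.16 to 0.057 for Ndufb9 and -0.42 to 0.011 for Tmem70. With effective-length offsets Fastk (0.067) turned sign in LV. RLE size factors (0.016) and DESeq2 (0.0012) turned that of Ndufb9 in RV. The least counted gene, mt-Nd6, had 3752 to 11718 counts. Sequencing depth was not varied.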
